A study of Mus musculus with 2 samples.

Results

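The genes examined were 29 genes of cholesterol synthesis and transport, all of the 29 listed symbols and 29 of the 27179 genes in the count tables. They were picked out by gene symbol, without a filter on their values, from a list drawn up with earlier results of these data known. RNA had been sequenced from iBAT, the interscapular depot of brown fat, which burns fuel for warmth, of untreated Bl6N mice at 20 days of age. 1 pool of 3 wild-type animals and 1 pool of 3 animals without uncoupling protein 1 (Ucp1-KO) gave a library each. With 1 library per genotype there was no replicate check, no p-value and no SD, and every difference given here is one between these 2 libraries. The labels name no other allele and no treatment for either genotype.

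Mammalian cells make cholesterol from acetyl-CoA. The mevalonate segment of the pathway builds isoprenoid units and joins them into farnesyl diphosphate, and the later segment makes squalene, closes it into lanosterol and trims that sterol to cholesterol. When sterols are scarce in the endoplasmic reticulum, the transcription factor SREBP2 is carried by its escort SCAP to the Golgi, released by proteolysis and switches on the genes of this pathway, whereas INSIG proteins hold the complex back. When sterols are plentiful, the nuclear receptors LXR raise genes for sterol export. Brown adipocytes are better known for making and burning fatty acids, whose synthesis is driven by the related factor SREBP1c.

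The libraries were checked before the members were read. They held 52950913 counts (wild-type) and 53216727 counts (Ucp1-KO). Ucp1 had 366473 and 37853 counts, so that 12.7% of the normalised wild-type level remained in Ucp1-KO, and the library labelled Ucp1-KO was not at 0. All 12 brown adipocyte markers had counts in both libraries, with a median log2 ratio of 0.53. Of these 9 were higher beyond counting error, among them Elovl3 (2.52), Dio2 (2.28), Ppargc1a (1.89) and Prdm16 (1.39) past 2-fold, and Ucp1 and Cox8b were lower. Markers of other cells and of sex also differed. All 23 skeletal muscle markers were lower in Ucp1-KO, and their summed level was 304348 normalised counts for wild-type against 45689 for Ucp1-KO. Of 12 endothelial markers 11 were lower (131564 and 82103 in sum), and of 12 Schwann cell and myelin markers 9 had a log2 ratio below 0 (10354 and 6966). Of 19 macrophage markers examined 10 were higher and 2 lower beyond counting error. At least 2-fold higher were 7, with Gpnmb (2.32), Lgals3 (2.23) and Itgam (2.04) furthest from 0, and none was at least 2-fold lower. Over the whole list of 20 the sums were 9816 and 13270, with Marco at 0 in wild-type. Of 10 hepatocyte markers, Fga, Fgb, Ahsg and Cyp7a1 were at 0 in both libraries, and 2 were examined, Cyp2e1 with 1680 and 1730 counts and Apoa2 with 21 and 41. The 4 Y-linked genes had 0 counts in wild-type, where the limit that a count of 0 allows is 6 counts a gene, and 5305 counts in sum in Ucp1-KO, although the animals are described as male. Xist, which is transcribed from the inactive X chromosome, had 32380 counts in wild-type against 16478 in Ucp1-KO. Mitochondrially encoded genes took 22.4% (wild-type) and 36.7% (Ucp1-KO) of counts. Genotype and the sex-linked difference between the pools cannot be told apart, and the part of these other differences in the results was not tested. In bulk tissue fewer cells of a type and less RNA per cell cannot be told apart either.

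To ask whether loss of UCP1 went along with a different cholesterol programme in young brown fat, the members were compared between the libraries. The genes did not move as a block. The difference is the log2 ratio of normalised counts, Ucp1-KO over wild-type, with a 95% interval that covers counting error only. Abca1, which encodes the pump that loads cholesterol onto apolipoprotein, was the only member at least 2-fold lower, at 28.1% of the wild-type level (26.4% to 29.9%). Hsd17b7, a ketosteroid reductase of the sterol segment, was the only member at least 2-fold higher, at 205% (170% to 248%). The other 27 members differed by less than 2-fold, and 17.0% of all genes examined differed by at least 2-fold in either direction. All 29 members had a mean normalised count of at least 10, the minimum for a gene to be examined, and of the 15212 genes that met it 9.55% were at least 2-fold lower and 7.42% at least 2-fold higher. The member shares of 3.45% in each direction were below both. Within the members' own range of mean normalised counts, 188 to 12775, the shares of all genes were 4.42% and 3.29%, near those of the members.

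Smaller differences were read from the counting intervals. The interval lay wholly below 0 for 13 members, or 44.8%, against 30.5% of all genes examined. It lay wholly above 0 for 10 members, or 34.5%, against 31.5%. For the remaining 6, Srebf2, Lss, Cyp51, Ebp, Stard4 and Soat1, the interval included 0. Log2 ratios were below 0 for 16 members and for 50.1% of all genes examined. Among genes in the members' range of counts, 33.4% lay wholly below 0 and 36.0% wholly above. The median log2 ratio was -0.09 over the members and -0.0016 over all genes. Scaling to total counts in place of median-of-ratios size factors shifted the median of all genes to -0.31, and with it the members, so directions given here are relative to the other genes of the tissue. Acat2, Sqle, Npc1 and Npc2, which were higher by at most 0.23 beyond counting error, had log2 ratios below 0 under that scaling, as did Lss, Cyp51 and Stard4, whose intervals included 0.

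**Figure D1:**
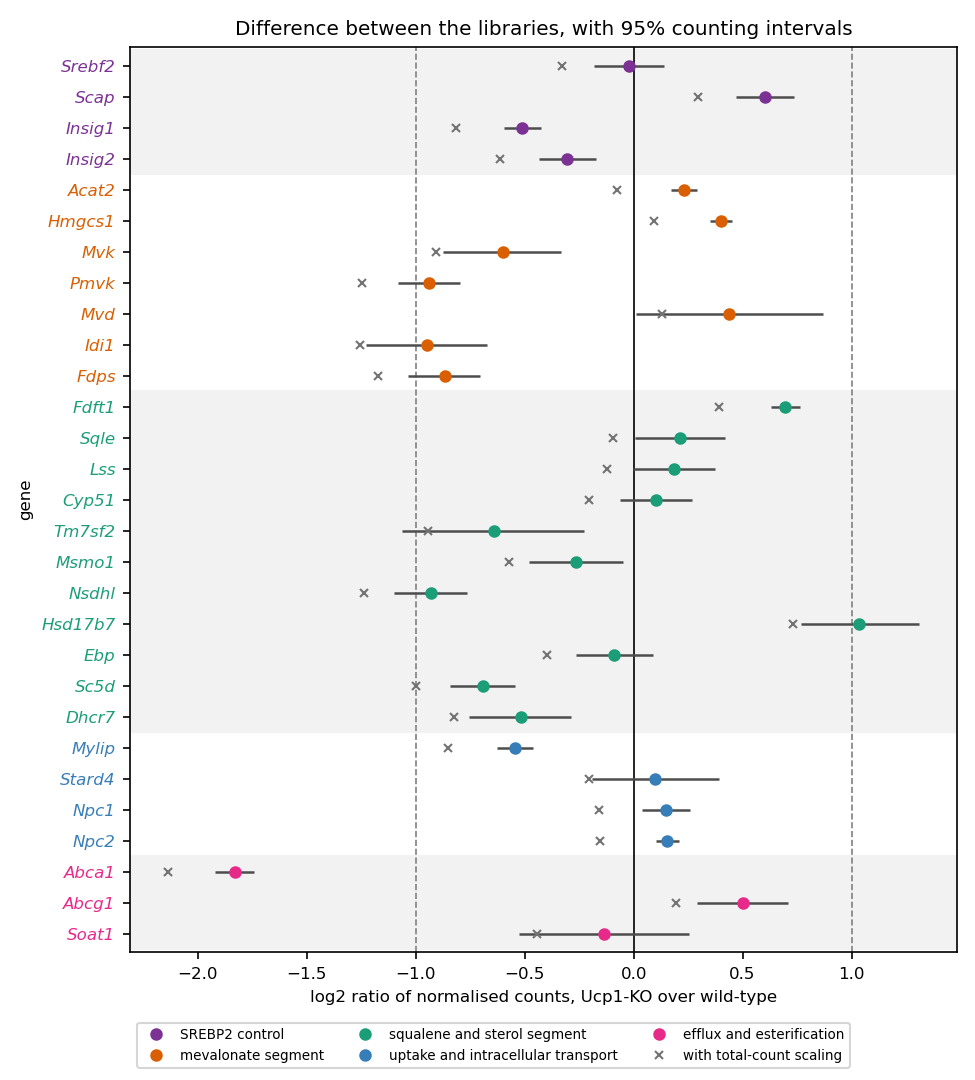
Log2 ratio of normalised counts, Ucp1-KO over wild-type (horizontal axis), for each of the 29 genes (vertical axis), coloured by role. Points are single differences between 1 library per genotype, bars are 95% counting intervals, dashed lines mark 2-fold and crosses give the value with total-count scaling. Abca1 lies far to the left at -1.83 and Hsd17b7 at 1.04, each segment of synthesis holds genes on both sides of 0, and the crosses of Acat2, Sqle, Lss, Cyp51, Stard4, Npc1 and Npc2 lie below 0 although their points lie above.

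Because SREBP2 is known to act on promoters of this pathway, the letters upstream of 4 members are shown. Hmgcs1 and Idi1 are both genes of the mevalonate segment and lay on opposite sides of 0, and Hsd17b7 and Abca1 were the members furthest from 0. The sequences are the 250 bases before the start of each gene as listed by RefSeq (GRCm38.p6), placed by an exact match in GRCm39. Hmgcs1 is at chr13:120151637-120151886 on the plus strand, Idi1 at chr13:8935392-8935641 on the plus strand, Hsd17b7 at chr1:169796775-169797024 on the minus strand and Abca1 at chr4:53159896-53160145 on the minus strand. Capitals mark motif letters on either strand: the sterol regulatory element core TCACNCCAC, the CCAAT box, the GC box and the E-box. The CCAAT box appears as ATTGG where it lies on the other strand. The GC box was searched as the letters GGGCGG, and the E-box, which reads alike on both strands, was searched as the letters CACGTG. Both strands were searched for each motif, and none of the marked motifs overlap.
Hmgcs1: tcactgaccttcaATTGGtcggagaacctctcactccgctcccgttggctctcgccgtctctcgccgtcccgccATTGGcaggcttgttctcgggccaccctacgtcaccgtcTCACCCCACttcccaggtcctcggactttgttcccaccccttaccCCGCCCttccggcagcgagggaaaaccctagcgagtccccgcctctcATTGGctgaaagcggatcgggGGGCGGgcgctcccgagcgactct
Idi1: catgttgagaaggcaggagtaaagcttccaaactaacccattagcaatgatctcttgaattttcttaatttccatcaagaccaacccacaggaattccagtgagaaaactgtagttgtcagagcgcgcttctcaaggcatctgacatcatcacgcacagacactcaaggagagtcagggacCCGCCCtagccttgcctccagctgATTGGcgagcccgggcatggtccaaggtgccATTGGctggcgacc
Hsd17b7: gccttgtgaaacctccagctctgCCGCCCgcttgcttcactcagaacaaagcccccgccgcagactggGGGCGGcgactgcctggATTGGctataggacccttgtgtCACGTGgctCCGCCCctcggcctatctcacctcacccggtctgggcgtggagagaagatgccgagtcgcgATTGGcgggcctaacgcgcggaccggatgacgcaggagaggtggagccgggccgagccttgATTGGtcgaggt
Abca1: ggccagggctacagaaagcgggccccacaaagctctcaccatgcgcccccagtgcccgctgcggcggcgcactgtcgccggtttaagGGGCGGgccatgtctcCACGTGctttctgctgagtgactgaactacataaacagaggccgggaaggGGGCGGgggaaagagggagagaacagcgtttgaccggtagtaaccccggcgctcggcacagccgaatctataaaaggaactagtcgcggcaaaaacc
The Hmgcs1 window holds TCACCCCAC, a match to the sterol element core, and CCAAT and GC boxes around it. The Idi1 window holds a GC box and CCAAT boxes close to the start, Hsd17b7 holds CCAAT boxes, GC boxes and an E-box, and Abca1 holds GC boxes and an E-box but no CCAAT letters.

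RefSeq windows of 300 bases, 250 before to 50 after the start, were found for 23 of the 29 members, some with several starts, which gave 29 windows. The sterol element core was in 1 of the 29 windows, that of Hmgcs1, and in 1.15% of the 14704 windows of genes examined. CCAAT, the box read by NF-Y, was in 69.0% of member windows and 37.3% of the windows of genes examined. The GC box, read by Sp1, was in 86.2% and 59.5%, and CACGTG in 24.1% and 9.53%. Over all 32851 windows, examined or not, CCAAT was in 37.4%, the GC box in 35.7% and CACGTG in 7.15%. Shares among genes within the members' range of counts were not computed, and a member with several starts counts once per window. The direct repeat bound by LXR was searched only as an exact match to its consensus, and copies with mismatches were not searched. The exact match was in 0 of the 29 member windows and in 0% of the 14704 windows of genes examined. Because no examined window held it, this search cannot set members apart from other genes. Nor can it show that a member lacks an LXR element. All these motif counts are letter matches in a short window and are not binding sites. The CCAAT box was in 20 of the 23 members with a window, so members on both sides of 0 were bound to carry it. Examples are Pmvk, Idi1 and Nsdhl, which were lower, and Hmgcs1 and Hsd17b7, which were higher. Whether the letters go with direction was not tested.

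**Figure D2:**
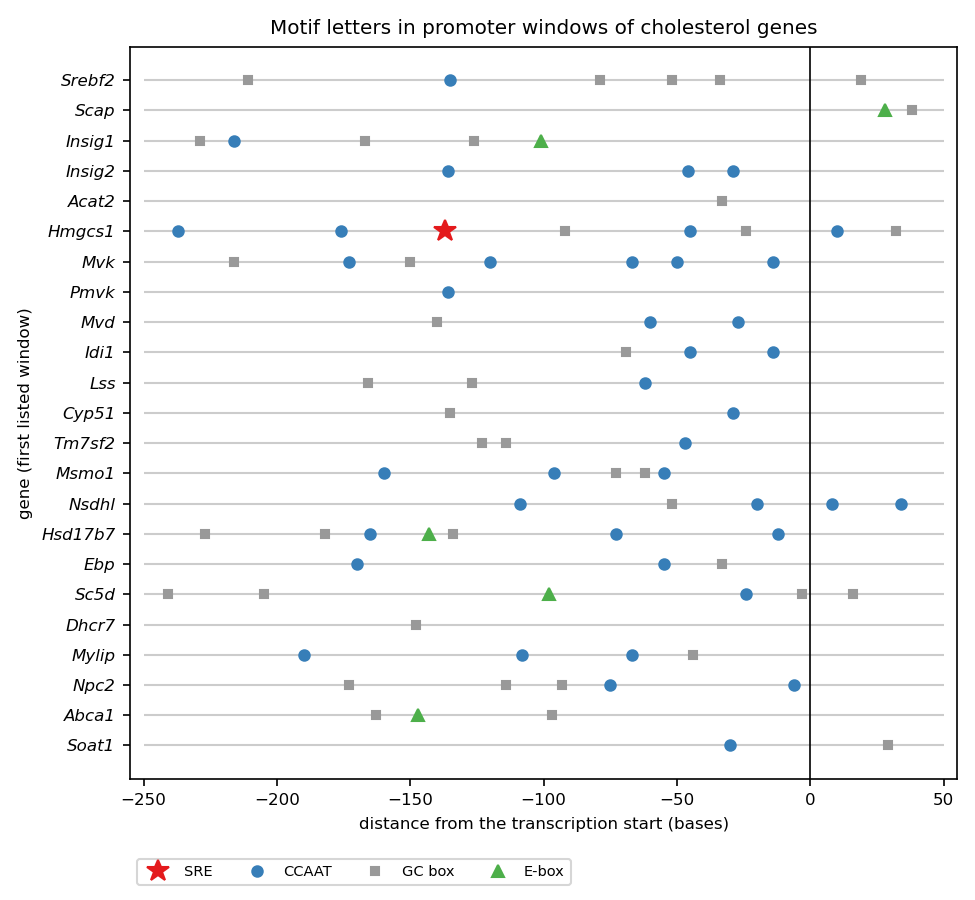
Positions of motif letters in the first listed RefSeq window of 23 members (vertical axis) by distance from the transcription start in bases (horizontal axis, start at 0). Symbols stand for the sterol regulatory element core (SRE), CCAAT, GC box and E-box on either strand, and 1 gene, Hmgcs1, has the sterol element core.

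Genes that control the pathway were read first. Srebf2 (Entrez gene 20788, chromosome 15 from 82031382 to 82093201 of GRCm39), which encodes SREBP2 itself, had 1299 normalised counts in wild-type against 1279 in Ucp1-KO (log2 ratio -0.02, interval -0.18 to 0.14). The interval included 0. Scap, the escort protein of SREBP, had 1467 against 2227 normalised counts (log2 ratio 0.60, interval 0.47 to 0.74).

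Both INSIG genes, whose proteins retain SCAP, were lower. Insig1, itself a target of SREBPs, had 5445 normalised counts in wild-type against 3822 in Ucp1-KO (log2 ratio -0.51, interval -0.60 to -0.42). Insig2 had 2191 against 1774 (log2 ratio -0.30, interval -0.44 to -0.17). The difference of Insig1 was the larger: the count of Insig1 was 2.48 times that of Insig2 in wild-type and 2.15 times in Ucp1-KO, and this ratio within a library does not depend on the scaling between libraries. The median of the 4 control genes was -0.16.

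The mevalonate segment divided into 3 genes that were higher and 4 that were lower, each beyond counting error, with a median of -0.60. The call of Mvd rests on the scaling: with TMM factors, or with total counts without mitochondrially encoded genes, its interval included 0, as did that of Sqle, and 8 members in place of 10 lay wholly above 0. At its entry, Hmgcs1 (chromosome 13 from 120151915 to 120170470), the HMG-CoA synthase of the cytosol, had 11010 normalised counts in wild-type against 14539 in Ucp1-KO (log2 ratio 0.40, interval 0.35 to 0.45). Acat2, the cytosolic thiolase that feeds it, had 8522 against 10005 (log2 ratio 0.23, interval 0.17 to 0.29). Both entry genes were higher in Ucp1-KO, Acat2 only with scalings other than total counts, which gave -0.0755.

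The kinases that follow were lower. Mvk, mevalonate kinase, had 590 normalised counts in wild-type against 389 in Ucp1-KO (log2 ratio -0.60, interval -0.87 to -0.33). Pmvk, phosphomevalonate kinase, had 2488 against 1298 (log2 ratio -0.94, interval -1.08 to -0.80). Mvd, the decarboxylase that makes isopentenyl diphosphate, stood apart from its neighbours at 160 against 216 normalised counts (log2 ratio 0.44, interval 0.01 to 0.87).

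The last steps to farnesyl diphosphate were again lower. Idi1, the isomerase of isopentenyl diphosphate, had 662 normalised counts in wild-type against 343 in Ucp1-KO (log2 ratio -0.95, interval -1.23 to -0.67). Among the enzymes Idi1, Pmvk and Nsdhl had the lowest log2 ratios and did not differ from each other beyond counting error. Fdps, farnesyl diphosphate synthase, had 1774 against 972 (log2 ratio -0.87, interval -1.03 to -0.70). Its interval overlapped those of Idi1, Pmvk and Nsdhl, and it did not differ from Idi1 beyond counting error. Pmvk, Idi1 and Fdps thus stood at 52.2%, 51.9% and 54.8% of the wild-type level, and each was past 2-fold lower with total-count scaling (-1.25, -1.25 and -1.17).

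At the branch into sterols the direction turned. Fdft1 (chromosome 14 from 63382189 to 63417027), squalene synthase, which draws farnesyl diphosphate into sterols, had 5811 normalised counts in wild-type against 9418 in Ucp1-KO (log2 ratio 0.70, interval 0.63 to 0.76). Counts of Fdft1 were 3.28 times those of Fdps in wild-type and 9.69 times in Ucp1-KO. Sqle, squalene epoxidase, was at 715 against 829 normalised counts (log2 ratio 0.21, interval 0.01 to 0.42), and at -0.0934 with total counts. Lss, which closes the ring system to give lanosterol, was at 882 and 1003, and Cyp51, the lanosterol demethylase, at 1177 and 1264, both within counting error.

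Among the enzymes that trim lanosterol to cholesterol, Tm7sf2, Msmo1, Nsdhl, Sc5d and Dhcr7 were lower beyond counting error, Cyp51 and Ebp were within it, and Hsd17b7 was higher. Hsd17b7 (Entrez gene 15490, chromosome 1 from 169777093 to 169796813, minus strand) had 325 normalised counts in wild-type against 668 in Ucp1-KO (log2 ratio 1.04, interval 0.77 to 1.31). It is near the limit of 2-fold: TMM scaling gave 1.02 and total counts 0.73. Nsdhl, the dehydrogenase that works beside HSD17B7 in removing the methyl groups at the same carbon, had 1732 against 909 (log2 ratio -0.93, interval -1.10 to -0.76). Nsdhl counts were 5.32 times those of Hsd17b7 in wild-type and 1.36 times in Ucp1-KO, the widest divergence between neighbouring steps in the order listed.

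The other genes of this stretch had smaller differences. Msmo1, the methyl sterol oxidase of the same complex, had 789 normalised counts in wild-type against 657 in Ucp1-KO (log2 ratio -0.26, interval -0.48 to -0.05). Tm7sf2, a sterol reductase, had 260 against 166 (log2 ratio -0.64, interval -1.06 to -0.23). Sc5d, the sterol desaturase near the end of the route, had 1986 against 1228 (log2 ratio -0.69, interval -0.84 to -0.54). Dhcr7, the reductase of dehydrocholesterol, was at -0.52 (-0.76 to -0.29), from 749 to 523 normalised counts. Ebp, the sterol isomerase, was at 1095 and 1030, within counting error. Nsdhl and Ebp lie on the X chromosome, and only the former was lower beyond counting error.

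Over the 18 enzymes of both segments, 9 were lower and 6 higher beyond counting error, and the median log2 ratio was -0.18. Their summed level went the other way, from 40727 to 45456 normalised counts (0.16), because Hmgcs1, Acat2 and Fdft1 make up most of it. With size factors the median and the sum of the enzymes therefore differ in sign. With total counts both were lower in Ucp1-KO. The median was then -0.48, and the share of all counts went from 0.0853% to 0.0770%. The median of the 11 genes of the squalene and sterol segment was -0.09.

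The 4 members listed under uptake and intracellular transport, which include no lipoprotein receptor, were close to equal apart from Mylip. Mylip (chromosome 13 from 45543215 to 45565501), the ubiquitin ligase that LXR induces to remove lipoprotein receptors from the cell surface, had 5962 normalised counts in wild-type against 4085 in Ucp1-KO (log2 ratio -0.55, interval -0.63 to -0.46). Npc1 and Npc2, the membrane and the soluble protein that pass cholesterol out of the lysosome together, had the same log2 ratio of 0.15, from 2645 to 2931 and from 11112 to 12367 normalised counts, and turned to -0.16 and -0.15 with total counts. Npc2 counts were 4.20 times those of Npc1 in wild-type and 4.22 times in Ucp1-KO. Stard4, a carrier of sterol between membranes, had 383 and 410, within counting error.

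Efflux genes diverged most. Abca1 (Entrez gene 11303, chromosome 4 from 53030787 to 53159900, minus strand) had 9730 normalised counts in wild-type against 2734 in Ucp1-KO (log2 ratio -1.83, interval -1.92 to -1.74), and 3.70% of all genes examined were as low or lower. Every scaling kept it past 2-fold, between -1.83 and -2.14. Abcg1, a transporter that hands cholesterol to lipoproteins, had 635 against 898 (log2 ratio 0.50, interval 0.29 to 0.71). The count of Abca1 was 15.3 times that of Abcg1 in wild-type and 3.05 times in Ucp1-KO. Soat1, which esterifies cholesterol for storage, had 239 and 217, within counting error. Abca1 and Mylip, both LXR targets, were lower, whereas Abcg1, also an LXR target, was higher, but at 0.19 and within counting error with total counts.

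Levels of different genes were compared per length, as normalised counts per kb of merged exons. In wild-type the highest were Hmgcs1 at 2090, Npc2 at 1812 and Mylip at 1796 per kb, and the lowest was Soat1 at 22.4. Tm7sf2 and Mvk came next, at overlapping intervals of 44.5 to 62.1 and 47.4 to 59.0 per kb. Npc2 and Mylip did not differ in level per kb of merged exons beyond counting error. In Ucp1-KO the order began with Hmgcs1 at 2760, Npc2 at 2017 and Fdft1 at 1971, and Abca1 moved from place 7 to place 12 of 29. With the length of the canonical transcript in place of merged exons Acat2 ranked first in both libraries and Soat1 remained last. Npc2 and Mylip then took places 2 and 6 in wild-type, at 2784 and 1944 per kb. Tm7sf2 moved from place 28 to place 22 in wild-type, so that places depend on the length used.

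**Figure D3:**
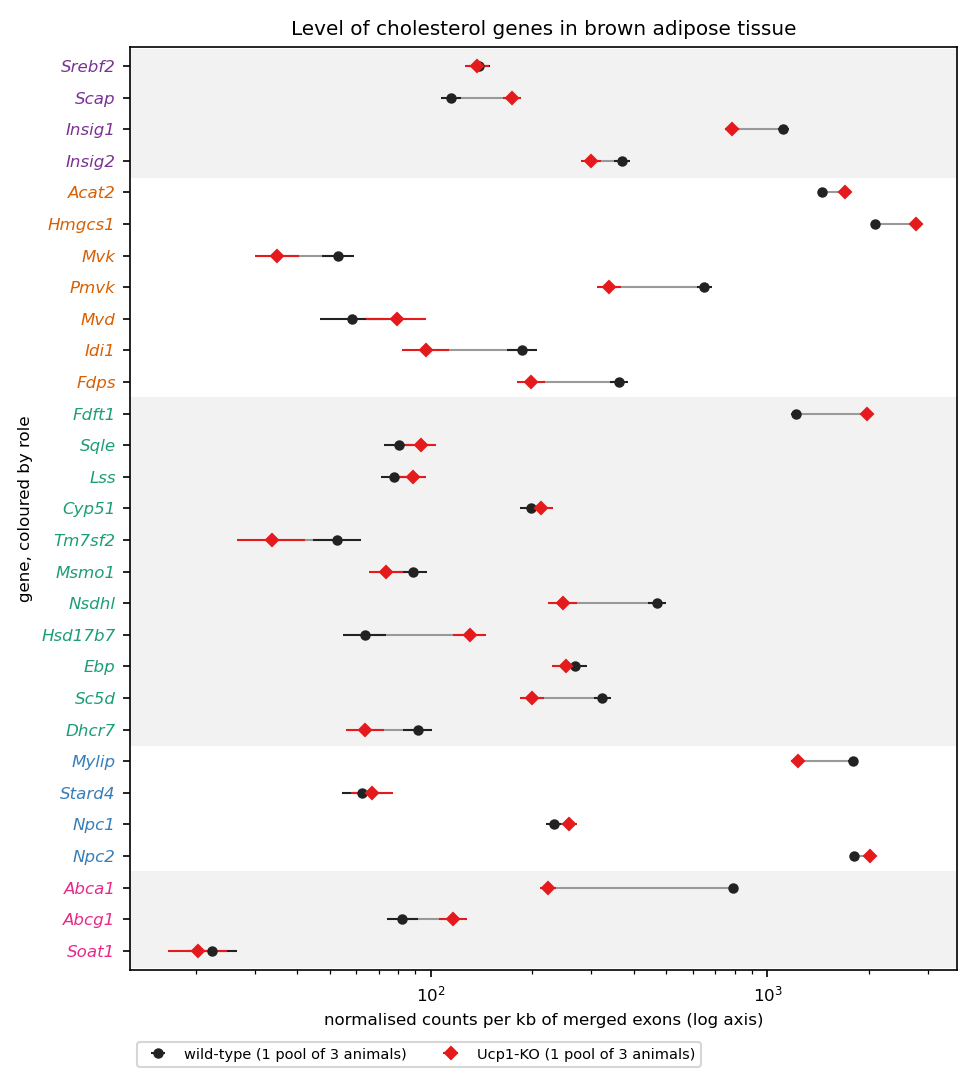
Level of each of the 29 genes (vertical axis, coloured by role as control, mevalonate, sterol, transport, efflux from top to bottom) as normalised counts per kb of merged exons on a log axis (horizontal). Circles are wild-type, diamonds Ucp1-KO, 1 pool of 3 animals each, and bars are 95% Poisson intervals on read pairs. Levels run from 20.4 per kb for Soat1 to 2760 for Hmgcs1, and the gap of Abca1 is the widest.

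Reads that match more than 1 gene limit some of these values, since the counting settings for such reads and for strand were not given in the sources used here. Of the members, 5 shared over 10% of the 31-base words of their longest coding transcript with transcripts of other genes. Fdps shared 42.05%, mostly with Gm3571, and Acat2 41.02% with Acat3, Idi1 22.3%, Dhcr7 17.4% and Fdft1 15.01%. Acat3, the neighbouring near copy of Acat2, had 68 counts in wild-type against 394 in Ucp1-KO (log2 ratio 2.82, interval 2.30 to 3.40), a value that shared words make uncertain. Exons of Fdft1 overlap those of the abundant Ctsb on the opposite strand over 24.8% of their length, Cyp51 overlaps Akap9 over 21.1% and Mvd a non-coding gene over 20.5%, also on opposite strands. Tm7sf2 overlaps Vps51 on the same strand over 10.8%, where strand cannot separate the reads. For Ctsb the log2 ratio was 0.25 and that of Fdft1 0.70. Abca1 shared no such word, and Hsd17b7 shared 0.458%.

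Other genes of sterol handling, 52 in 6 lists, were examined next, and 49 had a mean normalised count of at least 10. Of these 2 were at least 2-fold lower and 2 at least 2-fold higher, with a median of 0.03. Nceh1, a hydrolase that frees cholesterol from its esters, had 143 counts in wild-type against 1224 in Ucp1-KO (log2 ratio 3.39, interval 3.04 to 3.77), and is set here beside its counterpart Soat1, which was within counting error. Cyp39a1, an oxysterol hydroxylase, had 162 against 52 counts (log2 ratio -1.33, interval -2.04 to -0.69). The other genes past 2-fold, named after their values were seen, were Ch25h (4 and 22 counts) and Cyp7b1 (36 and 14 counts), with intervals of 0.56 to 5.97 and -2.57 to 0.26.

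The other genes examined in these lists were within 2-fold. Of 9 genes for SREBP processing and sterol-regulated degradation none was past 2-fold, and Ubxn8 at -0.73, Spring1 at 0.45 and Erlin1 at 0.44 were furthest from 0. Of 10 genes of the isoprenoid branches none was past 2-fold, 7 lay within counting error, and Nus1 at 0.52, Fntb at 0.40 and Pdss1 at -0.26 were furthest. The branches that draw on the same isoprenoids as Fdft1 thus had a median of 0.02. Among 15 other transport genes, Gramd1b at 0.56, Lrp1 at -0.55 and Gramd1c at 0.51 were furthest, and none was past 2-fold. Of 3 other sterol enzymes 2 were examined, with Lbr, a sterol reductase, at -0.53 and Ebpl at 0.28 (interval -0.16 to 0.71). In the remaining lists Lipa, the lysosomal lipase, was at 0.38, Pltp, a phospholipid transfer protein, at -0.36 and Cyp27a1, a sterol hydroxylase, at -0.20.

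The members were set beside fatty acid synthesis, the lipid pathway of the related factor SREBP1c. All 16 genes of de novo lipogenesis were lower beyond counting error, 11 at least 2-fold, with a median log2 ratio of -1.31. Of all genes examined 9.55% were at least 2-fold lower. Of the 18 synthesis enzymes of the members, which are not all the enzymes of the pathway, none was. Idi1 (-0.95), Pmvk (-0.94), Nsdhl (-0.93) and Fdps (-0.87) lay close to that limit, and with total counts they passed it. The lipogenic genes furthest from 0 were Slc25a1 at -2.25, Fasn at -2.11 and Scd2 at -1.93. Srebf1 was at -1.14 (-1.23 to -1.05), from 7871 to 2907 counts, whereas Srebf2 was at -0.02. The lipogenic genes made up 2.21% (wild-type) and 0.626% (Ucp1-KO) of all counts. The cholesterol enzymes made up 0.0853% (exact binomial interval 0.0842% to 0.0865%) and 0.0770% (0.0759% to 0.0781%). Of 19 lysosomal genes, compared because NPC1 and NPC2 act in that organelle, none was past 2-fold in either direction and the median was 0.04. Of 6 LXR targets outside the members only Srebf1 was past 2-fold, and Pltp at -0.36 and Lpcat3 at 0.33 lay on either side of 0.

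**Figure D4:**
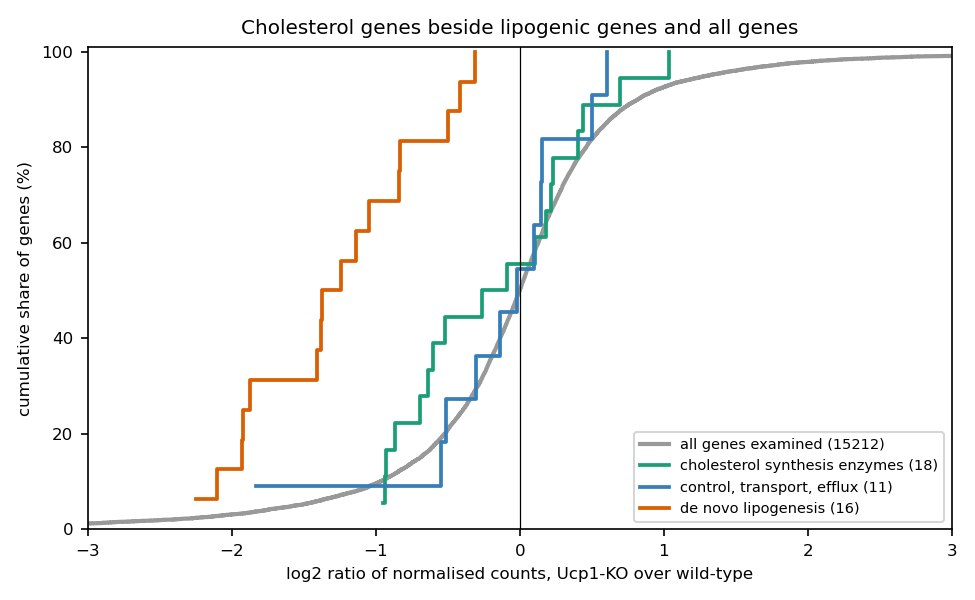
Cumulative share of genes in percent (vertical axis) by log2 ratio, Ucp1-KO over wild-type (horizontal axis), for all 15212 genes examined, the 18 cholesterol synthesis enzymes, the other 11 members and 16 genes of de novo lipogenesis. The lipogenic curve reaches 100% at -0.31, left of 0, while both cholesterol curves cross 0 near the curve of all genes.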

How the data were processed

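Counts per gene of 2 poly-A-enriched, directional libraries were used, 1 per genotype. The authors deposited raw counts for each gene from featureCounts. The submitters' processing notes name Trim Galore, HISAT2 and the build mm39, and the annotation and the settings for strand, mates and multiple matches were not given in the sources used here. Rows without a symbol (1319) were kept.

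Scaling used size factors from the median of ratios in DESeq2 1.42.0 (R 4.3.3), 1.11 for wild-type and 0.901 for Ucp1-KO. Log2 ratios compare Ucp1-KO with wild-type after 0.5 was added to each normalised count. A gene was examined where its normalised counts averaged 10 or more, and called where its log2 ratio reached 1 in either direction. Of genes with 1 to 10 counts 70.7% (wild-type) and 73.4% (Ucp1-KO) had an even count, as when both mates are counted. In a higher band of counts, which began at 100, 49.9% and 50.2% were even, so parity gave no such sign there. The 95% Clopper-Pearson and Poisson intervals were computed on read pairs (counts divided by 2), and the limit for a count of 0 was 3 pairs. With intervals on counts as deposited, 13 members were lower and 11 higher beyond counting error. Reads carry no molecular identifiers and are not independent molecules, so intervals cover counting error alone. Intervals of the members' ratios were between 0.10 and 0.86 wide on the log2 scale. Positions and exon lengths come from GENCODE mouse release 39 on GRCm39, joined by symbol, which matched all 29 members. Calculations were tested on simulated data.

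All 29 members, Ucp1, near copies of members and up to 3 genes of each other list furthest from a log2 ratio of 0, among those averaging 100 or more normalised counts, were named. The members, lists, motifs and the 4 promoters shown were chosen with earlier results of these data known. The results of 3 genes of the other lists are not reported here. The alternatives were TMM factors (edgeR 4.0.16), total counts with and without mitochondrially encoded genes, no filter or a minimum mean of 50, a pseudocount of 5, stricter size rules and sums in place of medians.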

Additional observations from a re-analysis of the deposited data

How the results depend on the processing

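No paired analysis was possible because there was a single library of either genotype, and leaving out a library was not possible either. The counts of members past a limit stayed within 1.5 times of those given with TMM factors or total counts without mitochondrially encoded genes. The same held for other filters on low counts and a pseudocount of 5. With each of these, every median stayed between the medians of its members' lower and upper interval bounds. That range is not the counting error of a median. Total counts moved most values, since they shifted the median of all genes to -0.31. Under them Ucp1 was at -3.28, 5 members (Pmvk, Idi1, Fdps, Nsdhl and Abca1) were at least 2-fold lower and 0 at least 2-fold higher, where 2320 and 732 of 15243 genes were. The medians were -0.48 for the synthesis enzymes, -0.47 for SREBP2 control, -0.91 for the mevalonate segment, -0.40 for the squalene and sterol segment and -0.18 for uptake and intracellular transport. Acat2 (-0.0755), Sqle (-0.0934), Npc1 (-0.16) and Npc2 (-0.15) changed sign, and 20 members were lower and 4 (Scap, Hmgcs1, Fdft1 and Hsd17b7) higher beyond counting error, a comparison chosen after seeing the data. A log2 ratio of at least 1.5, or an interval wholly beyond 2-fold, left 0 members higher. With size factors, sums in place of medians gave 0.16 for the synthesis enzymes, 0.14 for the mevalonate segment and 0.19 for the squalene and sterol segment. For efflux and esterification the sum gave -1.46, since the most abundant members set a sum. Of 116 values for single members, 90 were the same, 22 moved and 4 reversed. All that moved or reversed did so with total counts, where only Mvd, Tm7sf2 and Soat1 stayed the same. The other settings shifted log2 ratios so little that their values were bound to stay the same. Depth limits Mvd, Tm7sf2 and Soat1, whose intervals are the widest.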
